A study of Mus musculus with 12 samples.

Results

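The T-box, Id and E protein factors are 9 transcription regulators of effector and memory T cells that were taken by their symbols: Eomes, Tbx21, Prdm1, Zeb2, Bhlhe40, Id2, Id3, Tcf3 and Tcf12. All 9 are among the 12809 genes of the deposited table, and all 9 passed the filter on low values. They were followed in sorted CD4 and CD8 lymph node (LN) T cells of C57BL/6 (B6) and FlipFlop mice, with 3 RNA-sequencing libraries in each of the 4 groups. In FlipFlop mice the Cd8a gene locus was altered to encode CD4 (in embryonic stem cells of a strain other than B6) and the Cd4 gene locus was altered to encode CD8αβ.1 (in B6 embryonic stem cells), whereas B6 mice carry both loci unaltered. All mice were female, 10 weeks old for B6 and 14 weeks old for FlipFlop, so strain, age and genes left from that other strain cannot be told apart. The labels do not say whether replicates came from separate mice, so p-values measure the spread between these libraries only.

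T-box factors bind a short DNA element and switch on genes of killing and of interferon production. Eomes and T-bet (encoded by Tbx21) are the pair used by T cells. E proteins (Tcf3 encodes E2A and Tcf12 encodes HEB) bind the E-box as dimers, and Id proteins (Id2, Id3) hold E proteins in dimers that cannot bind DNA. In CD8 T cells Id2 and T-bet are known for short-lived effector cells and Id3 and Eomes for long-lived memory cells. Blimp-1 (Prdm1), ZEB2 (Zeb2) and Bhlhe40 act in effector T cells, and Blimp-1 also in regulatory T cells.

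Levels are CPM, read counts set against the total of their library, which the authors scaled with TMM, a correction for library composition. Differences are of log2(CPM + 0.5), which understates the change of low genes, and each has an adjusted p from limma over 11595 tested genes, called when it is under 0.05. The steps between low values gave an estimated depth of about 26570285 to 33115728 reads on listed genes per library, where 3 reads correspond to at most 0.120 CPM. The lineage factor ThPOK (Zbtb7b) was at 192 to 203 CPM in B6 CD4 and 162 to 172 CPM in FlipFlop CD8 T cells, and at no more than 2.79 CPM in the remaining libraries. B6 CD4 and FlipFlop CD8 T cells are therefore called ThPOK+ below, and the other groups (CD8 T cells of B6 and CD4 T cells of FlipFlop mice) ThPOK-. Runx3, the cytotoxic-lineage factor, was at 104 to 145 CPM in ThPOK- and at 52.6 to 68.4 CPM in ThPOK+ T cells.

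Eomes, Prdm1, Bhlhe40 and Id3 (4 of 9 members) were called in both strains with opposite signs. In B6 mice, CD4 T cells had more Prdm1, Bhlhe40 and Id3 and less Eomes, Tbx21 and Tcf12 than CD8 T cells. In FlipFlop mice, CD4 T cells had more Eomes and Tcf3 and less Prdm1, Bhlhe40, Id2 and Id3 than CD8 T cells. In B6 mice 6 of 9 members were called, 3 higher and 3 lower, where 25.4% of all tested genes were called, 14.6% higher and 10.8% lower. In FlipFlop mice 6 of 9 were called, 2 higher and 4 lower, beside 31.3% of all genes, 15.3% higher and 16.0% lower. The lineage effect is the mean of both ThPOK+ groups minus the mean of both ThPOK- groups, and tests whether the CD4 to CD8 difference differs between the strains. It was called for 7 of 9 members, 4 higher and 3 lower, where 39.3% of all genes were called, 19.9% higher and 19.4% lower. The median absolute lineage effect was 0.74 over the 9 members and 0.16 over all tested genes.

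**Figure D1:**
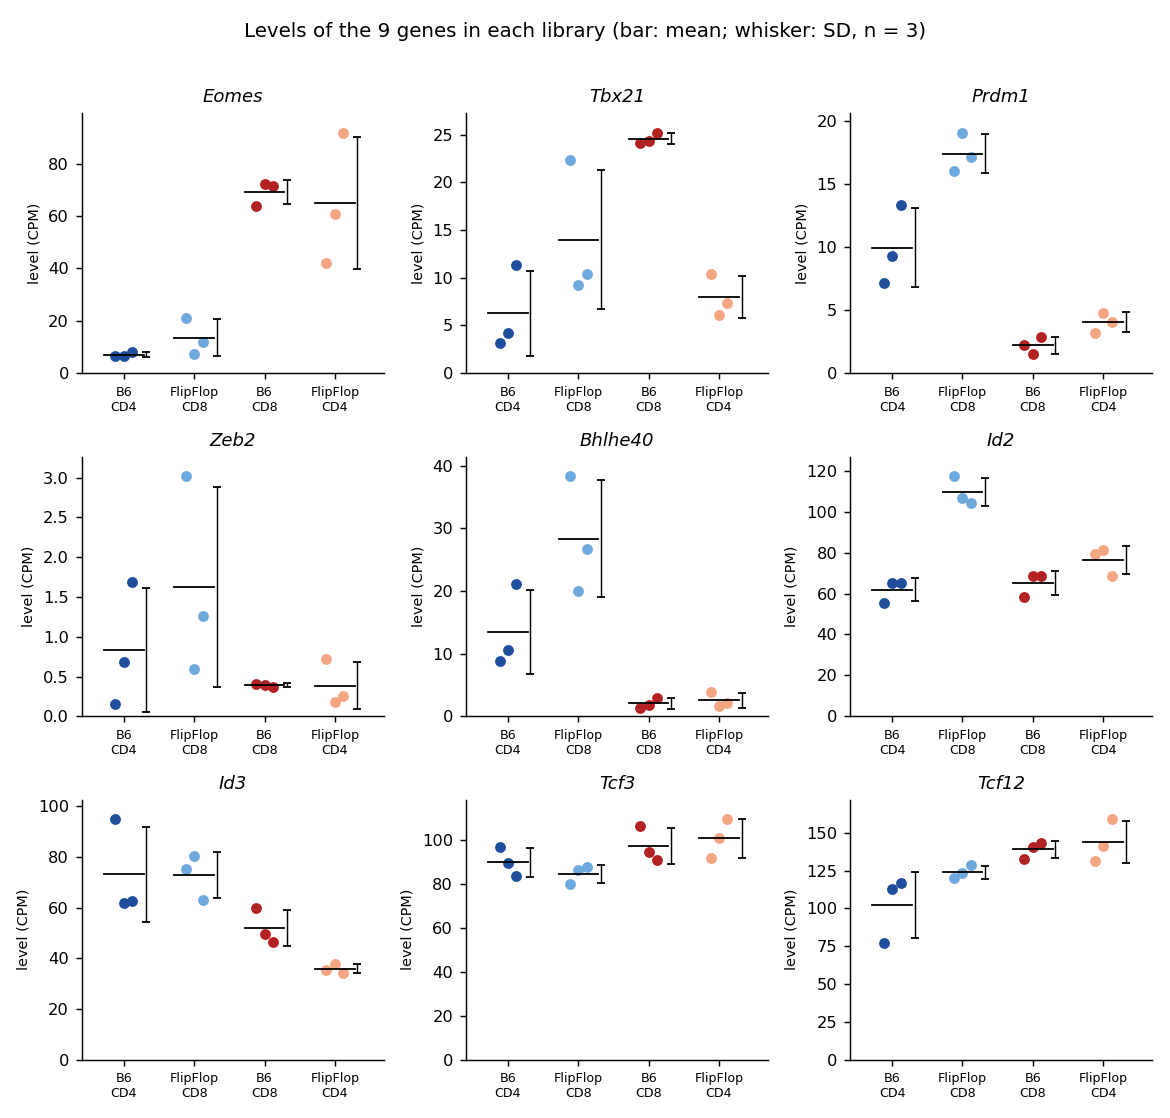
Level in CPM (y axis, from 0) of each of the 9 genes in every library of the 4 groups (x axis), with ThPOK+ groups in blue on the left and ThPOK- groups in red on the right of each panel. Points are libraries, bars are means and whiskers are SDs (n = 3). Eomes, Prdm1 and Bhlhe40 separate the blue from the red groups, while Tbx21 is highest in B6 CD8 T cells.

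Eomes (chr9:118478212-118486132, plus strand of mm10) was the T-box factor that reversed between the strains. B6 CD4 libraries held 6.50, 6.65 and 8.18 CPM and B6 CD8 libraries 63.7, 72.2 and 71.4 CPM. FlipFlop CD4 libraries held 42.2, 60.7 and 91.8 CPM and FlipFlop CD8 libraries 21.1, 7.41 and 12.03 CPM. The groups did not overlap within either strain, and the high group was CD8 in B6 mice and CD4 in FlipFlop mice. In B6 mice Eomes was 9.17-fold lower in CD4 than in CD8 T cells (log2 difference -3.20, SE 0.32, adjusted p = 1.06e-05). In FlipFlop mice Eomes was 4.83-fold higher in CD4 T cells (log2 difference 2.27, SE 0.32, adjusted p = 0.000142). Its lineage effect was -2.73 (SE 0.22, adjusted p = 9.22e-07). The FlipFlop groups spread more than the B6 groups, with the highest library 2.18 times the lowest in FlipFlop CD4 and 2.85 times in FlipFlop CD8 T cells, against 1.13 times in B6 CD8 T cells.

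Tbx21 (chr11:97098071-97115331, minus strand), which encodes T-bet, did not show that reversal. B6 CD4 libraries held 3.19, 4.23 and 11.4 CPM, and B6 CD8 libraries held 24.2, 24.3 and 25.2 CPM. FlipFlop CD4 libraries held 10.4, 6.09 and 7.399 CPM, and FlipFlop CD8 libraries held 22.4, 9.23 and 10.3 CPM. All B6 CD8 libraries lay above every other library, and the FlipFlop groups overlapped. Tbx21 was 4.23-fold lower in CD4 than in CD8 T cells of B6 mice (log2 difference -2.08, SE 0.40, adjusted p = 0.00184). In FlipFlop mice the log2 difference was -0.69, on the same side of 0 as in B6 mice, with a 95% interval from -1.56 to 0.17 (adjusted p = 0.219). Without FlipFlop CD8 replicate 1 that difference was -0.31 (adjusted p = 0.599).

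The coreceptor effect, the mean of both CD4 groups minus the mean of both CD8 groups, is 0 where FlipFlop T cells mirror B6 T cells. It was called for 5.49% of all tested genes, 1.71% higher and 3.78% lower in CD4 T cells, and for 2 members, Tbx21 and Id2, both lower. With replicates blocked within strain it was called for 4 members, beside 954 of all 11595 tested genes (636 without the block). For Tbx21 it was -1.39 (SE 0.28, adjusted p = 0.0134) and was called under every alternative setting tried, with adjusted p of at most 0.0402. The lineage effect of Tbx21 was -0.69 (adjusted p = 0.0701), and with replicates blocked within strain its adjusted p was 0.0176. It was called as well without B6 CD4 replicate 3 or without FlipFlop CD8 replicate 1, the libraries with the most Tbx21 of their groups. Leaving out both gave a lineage effect of -1.14. Both are ThPOK+ libraries picked for their high Tbx21. Removing the highest library of such a group can only move this effect further below 0, so these calls carry no weight.

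To compare the levels of Eomes and Tbx21, CPM was divided by the kilobases of merged exons. On that scale the log2 level of Eomes minus that of Tbx21 was 0.75 ± 0.09 in B6 CD8 T cells (SD, n = 3 here and below) and 2.25 ± 0.86 in FlipFlop CD4 T cells. It was -0.34 ± 0.78 in B6 CD4 and -0.80 ± 0.27 in FlipFlop CD8 T cells. The 3 FlipFlop CD4 libraries (1.28, 2.58 and 2.89) lay above the 3 B6 CD8 libraries (0.66, 0.83 and 0.76), so both ThPOK- groups held more Eomes than Tbx21 per length, by a wider margin in FlipFlop T cells.

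The RefSeq promoter windows of these genes on GRCm38.p6, the assembly behind mm10, run from 250 bases before to 50 bases after a transcription start. A window was found for 8 of the 9 members. The E-box, CANNTG, is shown because 4 of the members (Tcf3, Tcf12, Zeb2 and Bhlhe40) encode factors that bind forms of it. It reads the same on both strands, and 72.3% of all 32851 windows of that length hold at least 1. Below, capitals mark each E-box in the windows of Eomes (chr9:118477939-118478238, plus strand), Tbx21 (chr11:97115282-97115581, minus strand) and Prdm1 (chr10:44458699-44458998, minus strand), written 5′ to 3′.
Eomes: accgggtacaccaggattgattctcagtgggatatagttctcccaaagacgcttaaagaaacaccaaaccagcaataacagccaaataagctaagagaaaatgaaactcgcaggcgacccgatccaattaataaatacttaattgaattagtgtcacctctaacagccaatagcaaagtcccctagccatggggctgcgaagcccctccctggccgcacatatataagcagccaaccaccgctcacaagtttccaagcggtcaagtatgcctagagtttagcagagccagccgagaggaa
Tbx21: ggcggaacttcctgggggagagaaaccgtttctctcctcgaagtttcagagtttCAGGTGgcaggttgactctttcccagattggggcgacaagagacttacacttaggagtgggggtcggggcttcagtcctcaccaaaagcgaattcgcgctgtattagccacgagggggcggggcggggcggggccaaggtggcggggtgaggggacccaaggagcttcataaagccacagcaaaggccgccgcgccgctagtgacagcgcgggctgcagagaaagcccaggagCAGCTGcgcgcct
Prdm1: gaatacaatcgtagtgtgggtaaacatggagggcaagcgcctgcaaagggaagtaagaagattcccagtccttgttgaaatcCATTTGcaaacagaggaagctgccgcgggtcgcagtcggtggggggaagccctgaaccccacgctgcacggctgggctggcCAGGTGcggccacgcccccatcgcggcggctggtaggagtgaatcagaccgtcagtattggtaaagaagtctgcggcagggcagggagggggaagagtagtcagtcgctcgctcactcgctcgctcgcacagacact
The Tbx21 and Prdm1 windows each hold 2 E-boxes, and 1 of each pair is CAGGTG, the form known for E proteins and ZEB factors, which on either strand is in 20.2% of all windows. The Eomes window holds no CANNTG. The Bhlhe40 form CACGTG, found in 7.15% of all windows, and the T-box core GTGTGA, searched on both strands and found in 14.5%, are in none of these 3 windows.

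Among the repressors, Prdm1 (chr10:44437177-44528501, minus strand) was higher in ThPOK+ T cells of both strains. It was at 7.18, 9.26 and 13.3 CPM in B6 CD4 and at 2.21, 1.48 and 2.88 CPM in B6 CD8 libraries. In FlipFlop mice it was at 3.22, 4.78 and 4.05 CPM in CD4 and at 16.0, 19.0 and 17.1 CPM in CD8 libraries. All ThPOK+ libraries lay above all ThPOK- libraries, and FlipFlop CD8 libraries lay highest. Prdm1 was 3.85-fold higher in CD4 than in CD8 T cells of B6 mice (log2 difference 1.95, SE 0.23, adjusted p = 4.32e-05) and 3.99-fold lower in FlipFlop mice (log2 difference -2.00, SE 0.23, adjusted p = 2.7e-05). Its coreceptor effect was -0.03, with a 95% interval from -0.38 to 0.33.

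Bhlhe40 (chr6:108660629-108666925, plus strand), a basic helix-loop-helix repressor that is induced by T cell receptor signals, had the largest lineage effect of the 9 members. B6 CD4 libraries held 8.83, 10.6 and 21.2 CPM, and B6 CD8 libraries held 1.42, 1.84 and 3.01 CPM. FlipFlop CD4 libraries held 3.97, 1.70 and 2.12 CPM, and FlipFlop CD8 libraries held 38.4, 20.0 and 26.7 CPM. The groups did not overlap within either strain. The log2 difference was 2.38 in B6 mice (SE 0.36, adjusted p = 0.000317) and -3.24 in FlipFlop mice (SE 0.36, adjusted p = 2.13e-05), which is 5.21-fold higher and 9.44-fold lower in CD4 T cells. Its lineage effect was 2.81 (SE 0.25, adjusted p = 2.21e-06). The coreceptor effect of -0.43 was not called (adjusted p = 0.402), but with replicates blocked within strain its adjusted p was 0.0134. Bhlhe40 lies on chromosome 6, as do the altered Cd8a and Cd4 loci.

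At the limits of the study, a change over 5-fold with an unadjusted p under 0.0001, Eomes and Bhlhe40 passed in B6 mice, where 1.55% of tested genes passed. Bhlhe40 passed in FlipFlop mice, where 2.16% passed. Eomes and Bhlhe40 passed for the lineage effect, where 1.61% of tested genes passed.

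Zeb2 (chr2:44983632-45117395, minus strand), a zinc finger repressor of terminal effector cells, was close to the limit of detection. It was at 0.15, 0.68 and 1.68 CPM in B6 CD4 and at 0.41, 0.40 and 0.36 CPM in B6 CD8 libraries. FlipFlop CD4 libraries held 0.72, 0.18 and 0.26 CPM, and FlipFlop CD8 libraries held 3.02, 0.60 and 1.26 CPM. It reached 1 CPM in 3 ThPOK+ libraries only, which is what let it pass the filter. The groups overlapped within both strains, and no comparison was called. The FlipFlop log2 difference of -1.14 (adjusted p = 0.0764) had an adjusted p of 0.0240 with replicates blocked within strain, and the lineage effect of 0.78 (adjusted p = 0.0740) one of 0.0231.

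**Figure D2:**
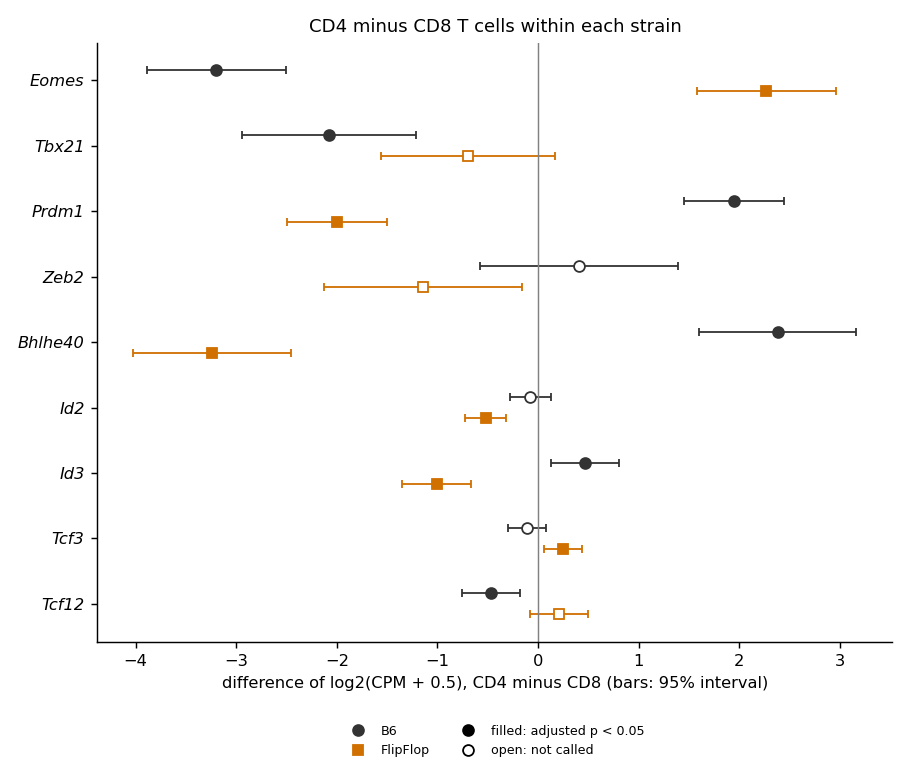
Difference of log2(CPM + 0.5) between CD4 and CD8 T cells (x axis) for each of the 9 genes (y axis) in B6 (circles) and FlipFlop mice (squares). Bars are 95% intervals, and filled symbols have an adjusted p under 0.05. Eomes, Prdm1, Bhlhe40 and Id3 change sides between the strains with both symbols filled, whereas both Tbx21 symbols lie left of 0.

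The Id proteins differed from each other. Id3 (chr4:136143497-136145755, plus strand) was higher in ThPOK+ T cells of both strains. B6 CD4 libraries held 94.9, 62.0 and 62.5 CPM, and B6 CD8 libraries held 60.0, 49.4 and 46.6 CPM. FlipFlop CD4 libraries held 35.3, 37.8 and 34.4 CPM, and FlipFlop CD8 libraries held 75.3, 80.5 and 62.9 CPM. The groups did not overlap within either strain, and FlipFlop CD4 libraries were below all others. Id3 was 1.38-fold higher in CD4 than in CD8 T cells of B6 mice (log2 difference 0.47, SE 0.16, adjusted p = 0.0454) and 2.01-fold lower in FlipFlop mice (log2 difference -1.01, SE 0.16, adjusted p = 0.000331). The B6 call was lost under 10 of 22 alternatives and was kept among the single libraries left out only without B6 CD4 replicate 2 or 3, B6 CD8 replicate 1 or FlipFlop CD8 replicate 3. Without B6 CD4 replicate 1 it was 0.27 (adjusted p = 0.118). Its lineage effect of 0.74 (SE 0.11, adjusted p = 0.000173) was kept under all alternatives tried. Its coreceptor effect of -0.27 (adjusted p = 0.207) had an adjusted p of 0.0258 with replicates blocked within strain.

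Id2 (chr12:25093799-25097140, minus strand) was highest in FlipFlop CD8 T cells. It was at 55.6, 65.0 and 65.1 CPM in B6 CD4 and at 58.4, 68.7 and 68.5 CPM in B6 CD8 libraries. It was at 79.4, 81.1 and 68.4 CPM in FlipFlop CD4 and at 117, 107 and 104 CPM in FlipFlop CD8 libraries. The B6 groups overlapped, while all FlipFlop CD8 libraries lay above every other library. In B6 mice the log2 difference was -0.07, with a 95% interval from -0.28 to 0.13. In FlipFlop mice Id2 was 1.44-fold lower in CD4 than in CD8 T cells (log2 difference -0.52, SE 0.10, adjusted p = 0.00119). Its lineage effect was 0.22 (adjusted p = 0.0195) and its coreceptor effect -0.30 (adjusted p = 0.0244). Both calls were lost when B6 CD4 replicate 3 and FlipFlop CD8 replicate 1 were left out together, at 0.18 (adjusted p = 0.0924) and -0.29 (adjusted p = 0.061). The coreceptor call was also lost without B6 CD8 replicate 2 or 3, FlipFlop CD4 replicate 3 or FlipFlop CD8 replicate 1 or 2.

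Per kilobase of exon, Id3 exceeded Id2 in B6 CD4 T cells, with a log2 difference between both genes of 0.66 ± 0.48, and lay below it in FlipFlop CD4 T cells at -0.64 ± 0.09. In between were B6 CD8 T cells at 0.11 ± 0.32 and FlipFlop CD8 T cells at -0.15 ± 0.17, and libraries of these groups overlapped. All FlipFlop CD4 libraries (-0.73, -0.66 and -0.55) lay below all libraries of the other groups.

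**Figure D3:**
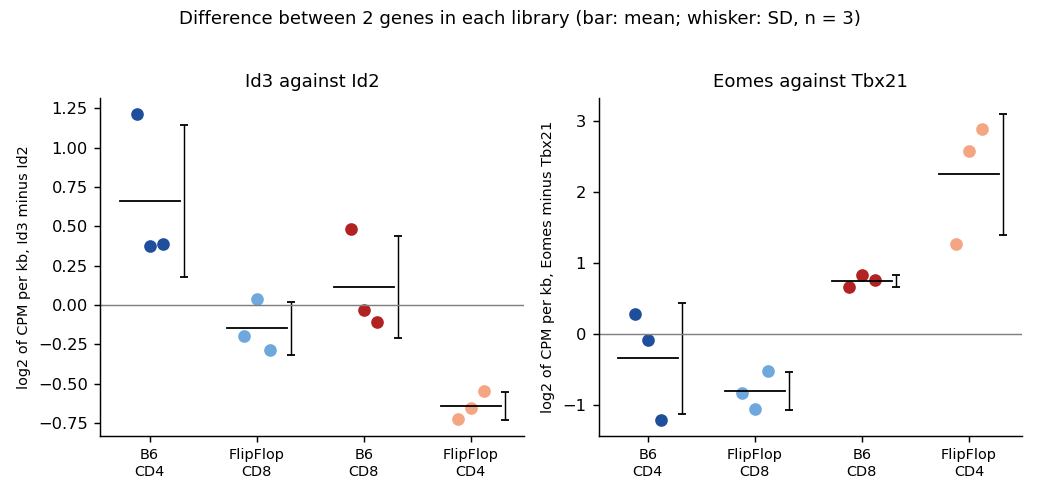
Log2 of CPM per kilobase of exon of Id3 minus Id2 (left y axis) and of Eomes minus Tbx21 (right y axis) within each library of the 4 groups (x axis). Points are libraries, bars are means and whiskers are SDs (n = 3). FlipFlop CD4 T cells have the lowest Id3 against Id2, from -0.73 to -0.55, and the highest Eomes against Tbx21, from 1.28 to 2.89.

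The windows of both Id genes are shown for comparison with those above, again with each E-box in capitals: Id2 (chr12:25096043-25096342, minus strand) and Id3 (chr4:136143572-136143871, plus strand).
Id2: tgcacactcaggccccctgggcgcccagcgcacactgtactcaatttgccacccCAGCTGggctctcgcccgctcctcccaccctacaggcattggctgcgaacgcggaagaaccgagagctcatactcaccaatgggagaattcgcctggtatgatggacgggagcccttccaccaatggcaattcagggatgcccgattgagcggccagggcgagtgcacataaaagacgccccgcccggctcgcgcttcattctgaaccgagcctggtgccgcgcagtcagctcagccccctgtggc
Id3: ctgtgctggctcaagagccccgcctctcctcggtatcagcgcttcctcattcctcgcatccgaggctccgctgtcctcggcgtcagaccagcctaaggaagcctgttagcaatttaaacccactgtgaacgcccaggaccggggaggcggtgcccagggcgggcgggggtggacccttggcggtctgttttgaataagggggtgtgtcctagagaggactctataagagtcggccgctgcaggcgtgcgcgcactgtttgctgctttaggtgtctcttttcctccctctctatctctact
The Id2 window holds 1 E-box, CAGCTG, and the Id3 window holds none. Neither holds the T-box core on either strand or the E-box forms named above.

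The E proteins that Id2 and Id3 bind were among the most even members. Tcf3 (chr10:80409514-80433647, minus strand) was at 83.4 to 96.6 CPM in B6 CD4, 91.0 to 106 CPM in B6 CD8, 91.9 to 109 CPM in FlipFlop CD4 and 79.8 to 87.6 CPM in FlipFlop CD8 libraries. The 4 ranges lie within a narrow span, and within the strains the B6 groups overlapped and the FlipFlop groups did not. Its log2 difference was -0.11 in B6 mice (adjusted p = 0.396) and 0.25 in FlipFlop mice (adjusted p = 0.0460), and its lineage effect was -0.18 (adjusted p = 0.0334). Without the TMM factor the FlipFlop difference was 0.07 (adjusted p = 0.633) and the lineage effect -0.06 (adjusted p = 0.564), neither called. The median over all tested genes moved too, from 0.036 to -0.135 in FlipFlop mice and from -0.025 to 0.093 for the lineage effect. The FlipFlop call was kept in 9 of 22 alternatives and the lineage call in 11 of 21.

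Tcf12 (chr9:71842688-72111871, minus strand) was at 76.9, 113 and 117 CPM in B6 CD4 and at 132, 141 and 143 CPM in B6 CD8 libraries. It was at 131, 141 and 159 CPM in FlipFlop CD4 and at 120, 123 and 128.5 CPM in FlipFlop CD8 libraries. The ThPOK- libraries were all above the ThPOK+ libraries, and B6 CD4 replicate 1, which held the most Id3, held the least Tcf12. Tcf12 was 1.38-fold lower in CD4 than in CD8 T cells of B6 mice (log2 difference -0.46, SE 0.13, adjusted p = 0.0211), and the FlipFlop difference was 0.21 (adjusted p = 0.263). Its lineage effect was -0.34 (SE 0.09, adjusted p = 0.0122). Without B6 CD4 replicate 1 the B6 difference was -0.27 (adjusted p = 0.0204). Without the TMM factor it was -0.40 (adjusted p = 0.0795) and the lineage effect -0.22 (adjusted p = 0.133). There the median over all tested genes moved from -0.004 to 0.061 in B6 mice and from -0.025 to 0.093 for the lineage effect.

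Taking Tcf3 and Tcf12 together against Id2 and Id3, the log2 of their summed CPM per kilobase was lower in ThPOK+ T cells. It was -1.19 ± 0.18 in B6 CD4 and -1.56 ± 0.17 in FlipFlop CD8 T cells, against -0.76 ± 0.03 in B6 CD8 and -0.59 ± 0.22 in FlipFlop CD4 T cells. The ThPOK+ libraries did not overlap with the ThPOK- libraries. Per kilobase and in B6 CD4 T cells, the order of the members was Id3 (40.8 ± 10.5 CPM per kb), Id2 (25.4 ± 2.24), Tcf3 (22.2 ± 1.64), Tcf12 (6.58 ± 1.42), Bhlhe40 (2.88 ± 1.42), Tbx21 (2.52 ± 1.79), Prdm1 (1.78 ± 0.56), Eomes (1.71 ± 0.22) and Zeb2 (0.042 ± 0.039). The mean ± SD ranges of Id2 and Tcf3 overlapped, as did those of the neighbours from Bhlhe40 to Eomes. In B6 CD8 T cells Eomes stood at 16.6 ± 1.13 CPM per kb, above Tbx21 at 9.87 ± 0.23 and Tcf12 at 8.94 ± 0.37. The length merges all annotated exons, 15.5 kb for Tcf12 and 19.9 kb for Zeb2 against 4.155 kb for Eomes and 2.49 kb for Tbx21. These orders depend on it, since in CPM Tcf12 (139) stood above Eomes (69.1) in B6 CD8 T cells.

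T cells with the same ThPOK status were then compared between the strains. FlipFlop CD4 T cells differed from B6 CD8 T cells in 1 member, where 7.92% of all genes were called, 4.17% higher and 3.75% lower. That member was Tbx21, 3.02-fold lower in FlipFlop CD4 T cells (log2 difference -1.60, SE 0.40, adjusted p = 0.0284) and with no overlap. The call was lost when any one of B6 CD8 replicates 1, 2 and 3 or FlipFlop CD4 replicates 2 and 3 was left out, with values from -1.61 to -1.43. Eomes differed by -0.16, with a 95% interval from -0.85 to 0.53. Prdm1 (0.77, adjusted p = 0.0627) and Id3 (-0.52, adjusted p = 0.0630) did not overlap between these groups and were not called. Prdm1 was called in 5 of 21 alternatives, among them with the replicate block (adjusted p = 0.0368) and without B6 CD4 replicate 1 or 3 or B6 CD8 replicate 3. Id3 was called in 3, among them with the replicate block (adjusted p = 0.0232) and without B6 CD4 replicate 1. That block matches replicate numbers across strains, which the labels do not link, so it is arbitrary here.

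FlipFlop CD8 T cells exceeded B6 CD4 T cells in 4 members and were lower in none, where 27.6% of all genes were called, 13.2% higher and 14.4% lower. Id2 was 1.77-fold higher (log2 difference 0.82, SE 0.10, adjusted p = 0.000135) and was called under all alternatives tried. Prdm1 was 1.76-fold higher (log2 difference 0.82, SE 0.23, adjusted p = 0.0220), with no overlap. Bhlhe40 (1.09, adjusted p = 0.0417) and Tbx21 (1.18, adjusted p = 0.0450) overlapped between the groups. Prdm1 lost its call in 3 of 21 alternatives (without B6 CD4 replicate 1 or FlipFlop CD8 replicate 2 or 3). Bhlhe40 lost it in 7, among them without B6 CD4 replicate 1 or 2, B6 CD8 replicate 2 or FlipFlop CD8 replicate 1 or 3. Tbx21 lost it in 11, and kept it among the single libraries left out only without B6 CD4 replicate 3 or FlipFlop CD4 replicate 1. Without FlipFlop CD8 replicate 1 the log2 difference of Tbx21 was 0.80 and that of Bhlhe40 0.85. Eomes differed by 0.77, with a 95% interval from 0.08 to 1.46 (adjusted p = 0.0882), and overlapped between the groups. It was called only without FlipFlop CD8 replicate 2 (1.12, adjusted p = 0.0255). Tcf12 (0.30, adjusted p = 0.106) was called without B6 CD4 replicate 3 (0.41, adjusted p = 0.0386). It was also called with the replicate block (adjusted p = 0.0383), which is arbitrary between strains. Without the TMM factor it was called at 0.47 (adjusted p = 0.0402), where the median over all genes moved from -0.008 to 0.152. Over both pairs of groups, the strain effect (FlipFlop minus B6) was called for Prdm1 (0.79, adjusted p = 0.00431) and Id2 (0.52, adjusted p = 0.000257), both higher, where 31.2% of all genes were called, 15.8% higher and 15.4% lower.

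**Figure D4:**
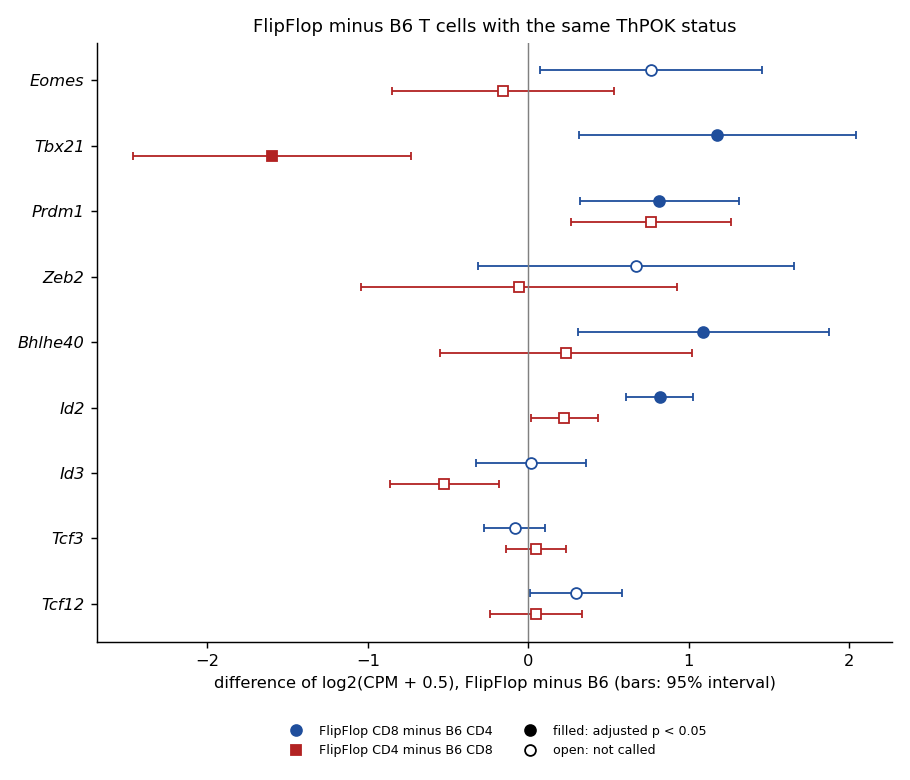
Difference of log2(CPM + 0.5) between FlipFlop and B6 T cells of the same ThPOK status (x axis) for each of the 9 genes (y axis), for ThPOK+ (blue circles) and ThPOK- groups (red squares). Bars are 95% intervals, and filled symbols have an adjusted p under 0.05. Tbx21 lies at 1.18 among ThPOK+ and at -1.60 among ThPOK- T cells.

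Markers of other cells and states moved with these values. Regulatory T cell markers (9 of 9 in the table) summed to 560 to 675 CPM in B6 CD4, 1272 to 1441 CPM in FlipFlop CD8 and 89.7 to 104 CPM in ThPOK- libraries. Foxp3, their defining factor, was at 93.1 to 128 CPM in B6 CD4, 305 to 362 CPM in FlipFlop CD8 and no more than 2.30 CPM in ThPOK- libraries. The group means of Prdm1 and Bhlhe40 share that order, but Bhlhe40 overlapped between B6 CD4 and FlipFlop CD8 libraries. B6 CD4 replicate 3 and FlipFlop CD8 replicate 1 had the lowest regulatory T cell sums of their groups (560 and 1272 CPM). Both had the highest Bhlhe40 of their groups (21.2 and 38.4 CPM). Markers of memory or activated T cells (12 of 12) were also highest in FlipFlop CD8 T cells, at 1721 to 2354 CPM against 820 to 1298 CPM elsewhere. Myeloid markers (8 of 10, without Cd14 and Adgre1) summed to 32.1 CPM in FlipFlop CD8 replicate 1 and 35.4 CPM in B6 CD4 replicate 3, the highest of their groups as for Zeb2 and Tbx21. Both libraries were also the highest of their groups for B cell markers (53.6 and 72.2 CPM) and dendritic cell markers (237.2 and 311.7 CPM). Natural killer (NK) cell markers (6 of 12, Ncr1 not among them) summed to 4.86 to 23.5 CPM over all libraries, with FlipFlop CD8 at 17.7 to 20.3 CPM. Plasma cell markers (7 of 7), which matter for Prdm1, were at 27.9, 9.43 and 30.3 CPM in FlipFlop CD8 libraries, where the library with the lowest sum had the highest Prdm1. B cell markers (9 of 9) summed to 39.9 to 75.2 CPM. Gamma delta and NKT cell markers (7 of 9) were highest in FlipFlop CD8 libraries, at 32.2 to 39.4 CPM against 8.998 to 18.7 CPM elsewhere. Dendritic cell markers (7 of 9) summed to 210 to 523 CPM, led by Cd74 or Ccr9 in each group, naive T cell markers (10 of 10) to 5352 to 7555 CPM, lowest in FlipFlop CD8, and T cell markers (11 of 11) to 6217 to 8962 CPM. The part of such cells in the differences was not tested, and in sorted bulk T cells fewer cells of a type cannot be told apart from less RNA per cell.

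Genes that T-bet and Eomes are known to bind or raise were followed as a list. All 19 listed targets are in the table and 18 were tested, S1pr5 being too low. In B6 mice 2 were higher and 10 lower in CD4 T cells (25.4% of all tested genes were called), and in FlipFlop mice 3 were higher and 5 lower (31.3% of all). The lineage effect was called for 4 higher and 5 lower targets, where 39.3% of all genes were called. Of the higher ones, Klrg1 and Ifng reached 1 CPM in ThPOK+ libraries only, which let them pass the filter. The coreceptor effect was called for 6 targets, all lower in CD4 T cells, where 5.49% of all genes were called. The median coreceptor effect of the targets was -0.90, beside 0.01 over all genes. FlipFlop CD8 replicate 1 held the most Ccl5 (164 CPM against 15.3 and 35.8 CPM) and Il18rap (36.7 against 14.5 and 15.4 CPM) of its group. Without it the median was -0.70, and the coreceptor effect was called for 1 higher and 6 lower targets (468 of all 11595 tested genes). The lineage effect was then called for 4 higher and 8 lower targets (4317 of all genes). It is a ThPOK+ library picked for its high values. Removing such a library can only move the lineage effect of these targets further down, so the added lower calls carry no weight. Over each of the 12 libraries left out in turn, 4 to 7 targets were lower by the coreceptor effect (396 to 604 of all genes).

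Nkg7, a protein of cytotoxic granules, was at 461 to 509 CPM in B6 CD8 and 293 to 297 CPM in FlipFlop CD4 libraries, and at 6.71 to 20.6 and 10.1 to 67.3 CPM in B6 CD4 and FlipFlop CD8 libraries. Its lineage effect was -4.61 (adjusted p = 1.26e-06), and that of the chemokine Xcl1 was -2.45 (adjusted p = 9.86e-08). Klrg1, a receptor of effector cells, went the other way (lineage effect 4.20, adjusted p = 1.82e-07). It was at 4.96 to 7.995 CPM in B6 CD4, 14.7 to 46.3 CPM in FlipFlop CD8 and at most 0.62 CPM in ThPOK- libraries. It thus passed the filter through ThPOK+ libraries only. The death ligand Fasl, at 6.92 to 10.6 CPM in ThPOK+ and 0.80 to 2.20 CPM in ThPOK- libraries, also rose with ThPOK status (2.25, adjusted p = 1.62e-08). Prf1, Il2rb and Il18rap were named after their values were seen. Prf1, which encodes perforin, reversed between the strains as Eomes did (-1.39 and 2.10 in B6 and FlipFlop mice). Il2rb, the interleukin 2 receptor beta chain, was instead lower in CD4 T cells of both strains (-0.996, adjusted p = 5.2e-06, and -0.78, adjusted p = 3.27e-05). Il18rap, an interleukin 18 receptor chain, was so too (-2.06, adjusted p = 0.00419, and -1.56, adjusted p = 0.0182).

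**Figure D5:**
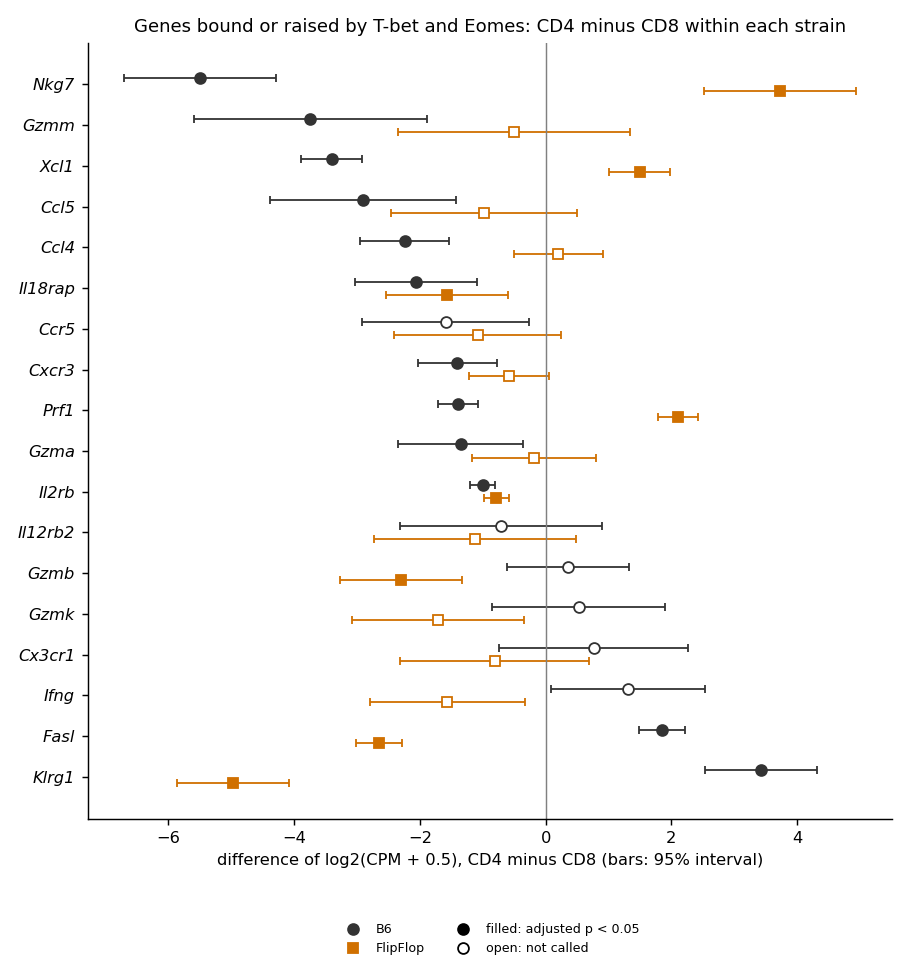
Difference of log2(CPM + 0.5) between CD4 and CD8 T cells (x axis) for the 18 tested T-box targets (y axis, ordered by the B6 value) in B6 (circles) and FlipFlop mice (squares). Bars are 95% intervals, and filled symbols have an adjusted p under 0.05. Nkg7, Xcl1, Prf1, Fasl and Klrg1 change sides with both symbols filled, while Il2rb and Il18rap stay left of 0 in both strains.

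Other genes of the E and Id protein family and its cofactors were low or moved little. Of 11 listed, 7 are in the table (Id1, Id4, Runx1t1 and Tal1 were not used here), and 5 had a called lineage effect (39.3% of all genes had one), all higher in ThPOK+ T cells. Without FlipFlop CD4 replicate 1 or FlipFlop CD8 replicate 2 there were 3, beside 4140 and 4029 of all 11595 genes. Lyl1, a basic helix-loop-helix partner of E proteins, was at 0.83 to 1.13 CPM in ThPOK+ and 0.15 to 0.41 CPM in ThPOK- libraries. Its lineage effect was 0.90 (adjusted p = 2.68e-05). It reached 1 CPM in ThPOK+ libraries only, so the filter itself selected for this direction. Tcf4, which encodes the E protein E2-2, was at 2.49 to 4.52 CPM in ThPOK+ and 1.60 to 2.82 CPM in ThPOK- libraries (0.65, adjusted p = 0.00113). The corepressor Cbfa2t3 had a lineage effect of 0.42 (adjusted p = 0.0365), and that of Lmo2, an adaptor protein, was 0.41 (adjusted p = 0.0740).

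Of 16 listed genes of T cells that E proteins are known to control, 12 are in the table, and the lineage effect was called for 5 higher and 1 lower, beside 39.3% of all tested genes. Without B6 CD4 replicate 2 there were 2 lower (4130 of all 11595 genes called). Without B6 CD4 replicate 3 or B6 CD8 replicate 1 there were 3 lower (4348 and 4211 of all genes). The Foxp3 effect was 6.64 (adjusted p = 7.03e-12). Cxcr5, the follicular homing receptor, was higher in ThPOK+ T cells (1.19, adjusted p = 6.6e-05). Cd4, whose locus is altered in FlipFlop mice, had an effect of 2.58, which is not comparable between the strains.

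Among 11 listed factors of naive and memory T cells, all in the table, the lineage effect was called for 1 higher (Bcl6, 0.81, adjusted p = 8.8e-06) and 2 lower genes (Lef1, -0.33, adjusted p = 9.24e-05, and Klf2, -0.28, adjusted p = 0.0267), beside 39.3% of all genes. Without B6 CD4 replicate 1 it was called for 3 higher and 2 lower, beside 5229 of all 11595 genes. Nr3c1, the glucocorticoid receptor, had 0.13 (adjusted p = 0.305). Among 15 listed effector factors, 13 are in the table, and 5 were higher and 4 lower by the lineage effect, beside 39.3% of all genes. Maf was at 33.7 to 85.0 CPM in ThPOK+ and 0.37 to 3.72 CPM in ThPOK- libraries (4.89, adjusted p = 8.04e-11). Irf4, a partner of Blimp-1 in effector cells, had a lineage effect of 1.57 (adjusted p = 1.5e-07), Rora of 1.42 (adjusted p = 5.46e-05) and Nfil3 of 1.13 (adjusted p = 6.03e-07).

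Across the 12 libraries, the genes most like each member were named by Pearson's r of log2(CPM + 0.5). These correlations hold the differences between groups and have no p. Eomes was closest to Ppp3cc (r = 0.981), Gm14029 (r = 0.979) and Nkg7 (r = 0.978). Tbx21 was closest to Ctla2a (r = 0.955), Xdh (r = 0.953) and the chemokine Ccl5 (r = 0.952). Like Tbx21, Ccl5 was high in FlipFlop CD8 replicate 1 (164 CPM) and in B6 CD8 T cells (82.2 to 119 CPM). That FlipFlop library lay above the B6 CD8 libraries for Ccl5 and below them for Tbx21. Prdm1 was closest to Rnf216 (r = 0.982), Frmd6 (r = 0.977) and Itga7 (r = 0.977), and Bhlhe40 to Klrg1 (r = 0.987), Adam8 (r = 0.986) and Gm6637 (r = 0.985). Zeb2 had Gzmk (r = 0.934), Cx3cr1 (r = 0.906) and Tmem135 (r = 0.882), of which Gzmk and Cx3cr1 are effector genes at no more than 18.9 CPM in any library.

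Id2 was closest to the DNA repair gene Brca1 (r = 0.959), the cell cycle factor Foxm1 (r = 0.933) and Nf2 (r = 0.933). Brca1 was at 6.77 to 7.26 CPM in FlipFlop CD8 libraries and at most 4.96 CPM elsewhere, and Foxm1 at 7.17 to 10.7 CPM against at most 4.24 CPM. Id3 was close to Rnh1 (r = 0.946) and Bmyc (r = 0.938). Tcf3 was closest to Zfp940 (r = 0.965), Llgl2 (r = 0.955) and Prkch (r = 0.939). Tcf12 was closest to Hipk1 (r = 0.971), Rictor (r = 0.965) and Rfx7 (r = 0.964), each of which was lowest in B6 CD4 replicate 1, as Tcf12 was.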

How the data were processed

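RNA of sorted LN T cells was measured in 12 libraries, 3 in each of 4 groups (CD4 or CD8, B6 or FlipFlop). Per the methods, the authors used a low-input RNA kit, paired-end reads and STAR on mm10, whereas the submitters' processing notes name Trimmomatic and TopHat. The program that counted reads, its use of strand, the annotation and the filter on low values are not given in the sources used here. The deposited table holds a normalized signal, that is CPM after division by the TMM factor of the library, and its 12809 gene identifiers all matched GENCODE M21 (GRCm38). Of the values under 100 CPM, 84.8% to 86.4% came out as whole reads (within 0.005 reads), so counts were not recovered and no count test was run. Depths are estimates, the column sum over the CPM of 1 read, and the 3-read floor covers counting error only. Antisense genes overlap exons of Eomes, Zeb2 and Bhlhe40.

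The 11595 genes that reached 1 CPM in 3 or more libraries (1214 did not) were fitted as log2(CPM + 0.5) in limma 3.58.1 (R 4.3.3; lmFit, then eBayes using a trend), 1 mean per group and 8 residual degrees of freedom. P-values were adjusted by Benjamini-Hochberg over all tested genes. The 7 comparisons were both within-strain pairs, both pairs of the same ThPOK status, and the lineage, coreceptor and strain effects. On simulated data the fit recovered 100 of 100 genes changed by 2 on the log2 scale and 89 of 100 changed by 1. Noise there was independent between libraries and fewer genes changed than were called in the data, so error rates here were not measured. The members, the 5 pathway lists, the 10 marker lists and the tests were chosen with earlier results of these data known. Named were the members, the 4 genes of each pathway list with the largest absolute lineage effect, the 3 genes most like each member, and Foxp3, Zbtb7b and Runx3. A few genes that this rule names are not reported here. Deviations from the group means correlated at 0.443, 0.271 and 0.513 between FlipFlop CD4 and CD8 libraries of the same replicate number. In B6 mice the values were 0.184, 0.0887 and 0.352, not all over 0.1, so a block there is by number alone. The labels do not state a pairing in either strain, the cause of these correlations was not tested, and the main fit holds no block. The common block also matches numbers across strains, which the labels do not link, so between strains it is arbitrary. Alternatives were pseudocounts of 0.1 and 1, no filter, a mean of at least 5 CPM, median-of-ratios rescaling, no TMM factor, replicate blocks, fits of 6 libraries, the limits of the study, and each library left out. Leaving out B6 CD4 replicate 3 and FlipFlop CD8 replicate 1 together, and leaving out libraries for the counts and medians of the pathway lists, was chosen after seeing the data. Sequences are from RefSeq (GRCm38.p6), and figures were drawn with matplotlib 3.10.9.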

Additional observations from a re-analysis of the deposited data

Results flagged for a closer look

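The CD4 to CD8 difference differed between B6 and FlipFlop mice for 7 of the 9 members, by the interaction of strain and coreceptor in limma (3 libraries per group). The value given is the B6 difference minus the FlipFlop difference on the log2 scale. It was 5.62 for Bhlhe40 (adjusted p = 2.21e-06), -5.47 for Eomes (adjusted p = 9.22e-07) and 3.94 for Prdm1 (adjusted p = 9e-07), whose differences were called in both strains and with opposite signs. It was 1.48 for Id3 (adjusted p = 0.000173), also called in both strains. It was 0.45 for Id2 (adjusted p = 0.0195), with a difference called in FlipFlop mice and not in B6 mice. It was -0.68 for Tcf12 (adjusted p = 0.0122) and -0.36 for Tcf3 (adjusted p = 0.0334), each called in 1 strain and lost without the TMM factor. Tbx21 and Zeb2 did not meet the limit in this fit, which holds no block, but both met it with replicates blocked within strain.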

How the results depend on the processing

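Of 1325 values of a member in a comparison under an alternative, 1196 kept their sign and their side of the limit, 71 lost a call, 32 gained one and 26 changed sign. Of the 28 calls, 17 were kept under every alternative and none changed sign. At the limits of the study, over 5-fold with p under 0.0001 or under 0.05, the number of members called was 2 in B6 mice, 1 in FlipFlop mice, 2 for the lineage effect and 0 in each other comparison. With a common replicate block, 3 members were called for FlipFlop CD4 against B6 CD8, beside 1142 of all 11595 genes (918 without it). For FlipFlop CD8 against B6 CD4 5 were called, beside 4022 genes (3196 without it). For the strain effect 4 were called, beside 4295 genes (3615 without it). The replicate block within strain gave 4 for the coreceptor effect, beside 954 genes (636 without it). Under the common block the FlipFlop call of Tcf3 was lost (adjusted p = 0.0573), and beside the blocked values given with the results the within-strain block changed no other call. Fits of 6 libraries gave 2 calls in each of both comparisons between strains. Beside them, 1042 of all genes were called for FlipFlop CD4 against B6 CD8 and 1500 for FlipFlop CD8 against B6 CD4. Leaving out B6 CD4 replicate 3 and FlipFlop CD8 replicate 1 together gave 1 call for the coreceptor effect (464 of all genes). It gave 2 between FlipFlop CD4 and B6 CD8 (867 of all genes).

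Leaving out 1 library gave 4 to 6 calls in B6 mice (2275 to 3210 of all 11595 tested genes). It gave 5 to 8 in FlipFlop mice (2836 to 4419 genes) and 6 to 8 for the lineage effect (4007 to 5229). The coreceptor effect had 1 to 3 calls (396 to 604 genes) and the strain effect 2 to 3 (2485 to 4011). Calls numbered 0 to 3 between FlipFlop CD4 and B6 CD8 (515 to 1566 genes). They numbered 1 to 5 between FlipFlop CD8 and B6 CD4 (1654 to 3751). The FlipFlop call of Tcf3 was lost without B6 CD4 replicate 2, B6 CD8 replicate 2 or 3, FlipFlop CD4 replicate 2 or 3 or any FlipFlop CD8 library, and its lineage call without B6 CD4 replicate 2 or 3, B6 CD8 replicate 1 or 2, FlipFlop CD4 replicate 2 or 3 or FlipFlop CD8 replicate 1 or 2. The B6 call of Tcf12 was lost without B6 CD8 replicate 2 or 3. The changes of sign were in values that no setting called, and their cause was not tested. With 1 library left out, the range was -0.44 to 0.11 for Eomes, -0.064 to 0.48 for Bhlhe40, -0.31 to 0.11 for Zeb2, -0.011 to 0.12 for Tcf3 and -0.027 to 0.11 for Tcf12 between FlipFlop CD4 and B6 CD8. It was -0.086 to 0.22 for Id3 between FlipFlop CD8 and B6 CD4, -0.027 to 0.85 for Zeb2 and -0.15 to 0.00061 for Id2 in B6 mice, -0.40 to 0.043 for Tbx21 and -0.048 to 0.016 for Tcf3 in the strain effect, and -0.14 to 0.074 for Prdm1 in the coreceptor effect. Prdm1 also changed sign with a pseudocount of 0.1 (0.016), and Tcf3 without the TMM factor between FlipFlop CD8 and B6 CD4 (0.081) and in the strain effect (0.095). With B6 CD4 replicate 3 and FlipFlop CD8 replicate 1 both left out, Zeb2 in B6 mice was -0.027 and Id3 between FlipFlop CD8 and B6 CD4 was -0.11. Zeb2, at 3.02 CPM or less, varied up to 11.2-fold between libraries of a group, and the part of depth in this was not tested.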
